A study of Homo sapiens with 4 samples.

Results

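CEBPB sites were examined around 9 genes of the canonical WNT pathway (APC, CTNNB1, AXIN2, TCF7L2, TCF7, LEF1, RNF43, ZNRF3 and SOX9) in NCM460 cells, a line of human colon epithelium. CEBPB belongs to the C/EBP family of transcription factors, which bind DNA through a basic leucine zipper. The series holds 2 ChIP samples, immunoprecipitated from NCM460 chromatin with an antibody to CEBPB which the design text calls independent experiments, and 2 input samples of NCM460 DNA without immunoprecipitation. All samples are of the same line in standard culture, with no treatment named, so the cells are compared with no other condition, and the inputs enter only as the background of the authors' peak calls. The genes were chosen by name, and their sites by position alone: every peak summit, and every region of the authors' table of the irreproducible discovery rate (IDR), within 100 kb of the start site on the hg19 build. Summits numbered 84 of 80530 in replicate 1 and 94 of 104307 in replicate 2 on chromosomes 1 to 22 and X. Of the 25602 distinct regions of the IDR table, which holds sites whose ranks match between replicates at a global IDR of at most 0.05, 24 fell in the 9 windows. They are called reproducible regions here. Chromatin immunoprecipitation measures enrichment of DNA and not expression, so neither the colon identity of the line nor the activity of these genes could be checked in these files.

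In the canonical pathway, a destruction complex built on the scaffolds APC and AXIN marks beta-catenin, the product of CTNNB1, for degradation. WNT ligands halt the complex, and beta-catenin then enters the nucleus and activates genes together with DNA-binding factors of the TCF/LEF family, TCF7L2, TCF7 and LEF1. RNF43 and ZNRF3 are membrane ubiquitin ligases that remove the Frizzled receptors from the cell surface, and AXIN2 is itself a target of the pathway, so that all of them act as feedback inhibitors. The pathway maintains the stem cells of colon crypts, and the transcription factor SOX9 is among its targets there. Loss of APC is a common early step of colorectal cancer.

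Each summit is described by the authors' fold enrichment over input, by the number of extended reads stacked at the summit, called fragments and recovered from the deposited fold and p-value, and by the background, the number of fragments expected there from input. Distances run in the direction of transcription, with upstream before the start site. The start sites were given in whole kb, so each distance may be off by up to about 1 kb, and a site given as about 1 kb away may lie at the start itself. Over all summits the median was 24 fragments in replicate 1 and 28 in replicate 2, and the tallest summits had 299 and 312. The median background was 2.14 and 2.20 expected fragments.

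No reproducible region lay within 5 kb of any of the 9 start sites. At the genome mean of 1.69 reproducible regions per 200 kb, stretches this short would hold few. The absence thus does not by itself set these starts apart, and other start sites were not counted. The nearest region was 6.55 kb downstream of the APC start, and the median distance was 60.1 kb, with 9 regions upstream and 15 downstream. Weaker peaks did lie at starts. Summits of both replicates within 100 bp of each other, called pairs here, occurred within 2 kb of a start at 3 loci: SOX9, RNF43 and AXIN2. All 3 lay outside the reproducible regions. Only 1 start site per gene was used. RefSeq lists further starts for APC, TCF7L2, TCF7 and RNF43, and sites near those were not searched for.

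The promoter-proximal pair at RNF43 lay 1.04 kb upstream of the rounded start site, a distance that is not resolved, with folds of 7.43 in replicate 1 and 8.85 in replicate 2 and 31 and 43 fragments over a background of 3.00 in both. At SOX9 the pair lay 0.856 kb downstream, likewise not resolved from the start, with folds of 8.66 and 5.82 and 20 fragments in each replicate. The pair at AXIN2 was 1.91 kb upstream and the weakest of the 3, with folds of 4.46 and 5.08 and 23 and 17 fragments. RefSeq promoter sequence (GRCh38.p14) was at hand for 6 of the 9 genes. It is shown for RNF43, the only one of these 6 genes with a pair within 2 kb of its start, and for APC, the only one with a C/EBP core match before its most upstream start. The RNF43 sequence is the minus strand of chr17:58417535-58417784 and the APC sequence the plus strand of chr5:112707248-112707497, each the 250 bases before the more upstream of 2 listed starts. They were not placed against the hg19 summits. Capitals mark a match to the C/EBP core.
RNF43: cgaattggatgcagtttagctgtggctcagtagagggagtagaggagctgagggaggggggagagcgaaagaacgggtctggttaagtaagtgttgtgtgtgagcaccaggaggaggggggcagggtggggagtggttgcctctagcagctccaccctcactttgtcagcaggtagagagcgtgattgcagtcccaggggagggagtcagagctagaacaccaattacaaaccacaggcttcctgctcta
APC: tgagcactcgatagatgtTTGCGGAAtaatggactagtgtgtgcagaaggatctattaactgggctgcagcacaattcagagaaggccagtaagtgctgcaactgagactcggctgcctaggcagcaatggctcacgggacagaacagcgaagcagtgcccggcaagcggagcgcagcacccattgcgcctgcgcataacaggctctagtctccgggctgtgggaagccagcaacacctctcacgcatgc
The motifs searched, on both strands, were the C/EBP core TTGCNNAA, the AP-1 site TGANTCA, the composite C/EBP and ATF site TGATGCAA and the TCF/LEF site CTTTGAT. The composite site can overlap a C/EBP core. None was found in the RNF43 sequence, and the 250 bases before the other RNF43 start held 1 AP-1 match. The APC sequence held 1 match, to the C/EBP core, at 232 to 225 bases before the start, and the most upstream promoters of CTNNB1, TCF7L2, TCF7 and LEF1 held none. Of 34788 promoter sequences of the same length, 9.05% held the C/EBP core, 6.59% the AP-1 site, 0.776% the composite site and 2.27% the TCF/LEF site. Matches describe the letters of these windows only.

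**Figure D1:**
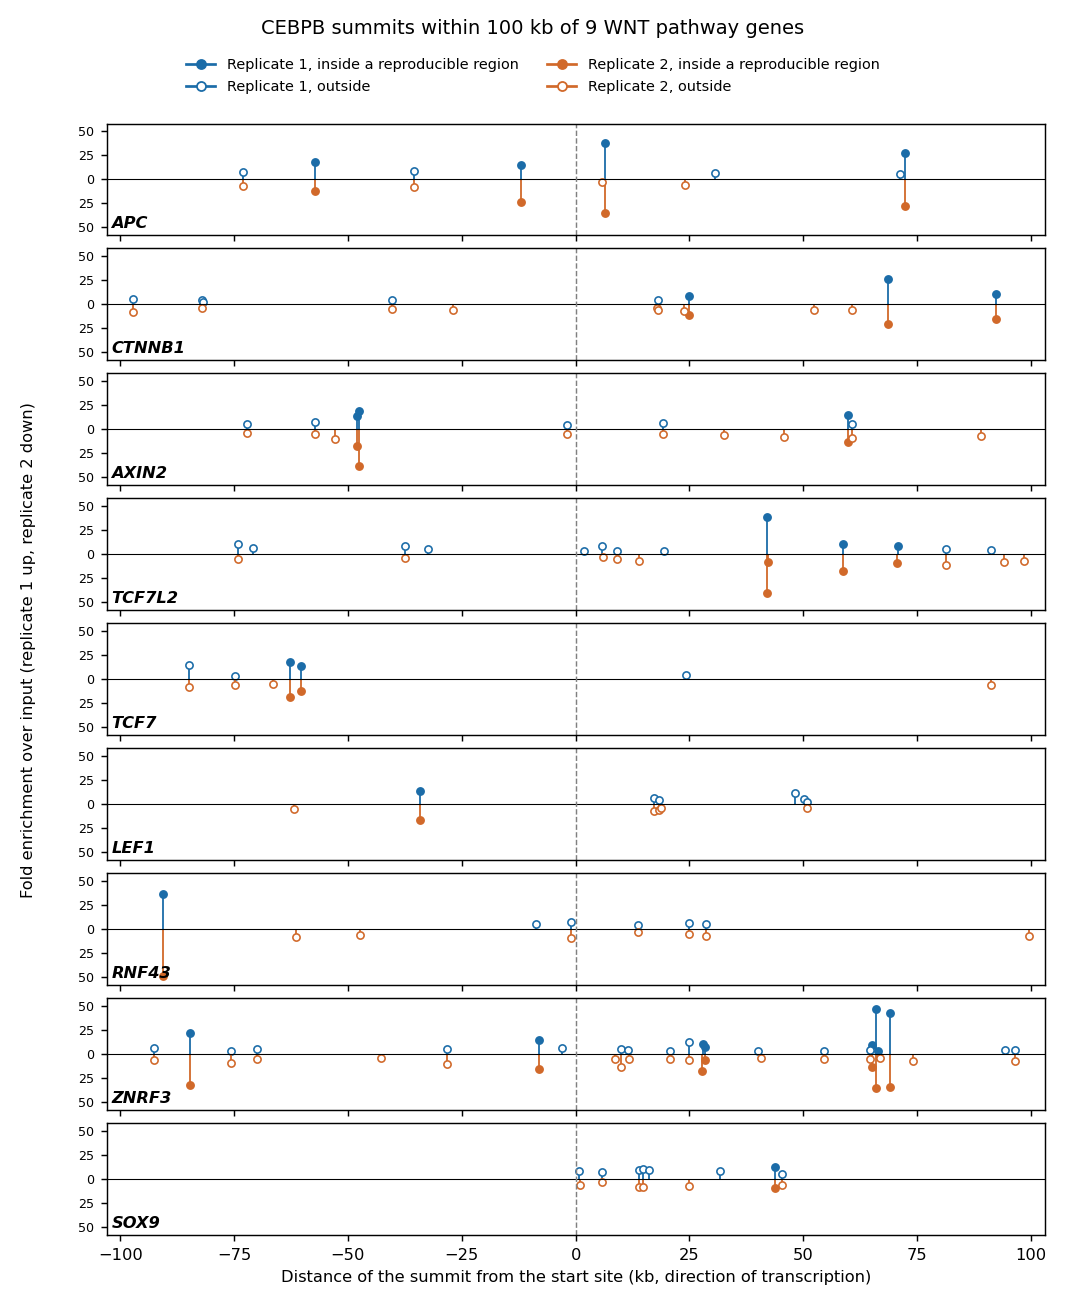
Position (kb from the start site, in the direction of transcription) and fold enrichment over input of every CEBPB summit within 100 kb of 9 WNT pathway genes, with replicate 1 upward and replicate 2 downward. Filled circles lie inside a reproducible region and open circles outside. No filled circle lies within 5 kb of a start site (dashed line), and the SOX9 window has no summit upstream.

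The destruction complex genes were the first group. APC, the main scaffold, in band 5q22.2, had 4 reproducible regions, more than any other locus except ZNRF3. The strongest, at chr5:112049344-112049738, 6.55 kb downstream of the start, had folds of 37.8 and 35.1 (mean 36.4 ± 1.93, SD, n = 2) and 152 fragments in each replicate. Its mean fold was above that of 95.4% of reproducible regions. The libraries thus stacked the same number of fragments at the reproducible APC region nearest the start. For regions of like height the median ratio of replicate 2 to replicate 1 was 1.18. The region did not pass the test for a difference (adjusted p = 0.562, exact binomial test over all reproducible regions).

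A second strong APC region lay 72.3 kb downstream at chr5:112115040-112115591, with folds of 27.1 and 28.1 and 59 and 92 fragments. RefSeq's gene model of APC (GRCh38) is longer than 100 kb, so both downstream regions lie on the side of the gene body. Upstream, the region at 12.0 kb had folds of 14.8 and 23.2, with 47 fragments in replicate 1 and 100 in replicate 2. That was 2.13 times as many, against a median of 1.32 for regions of like height, but it missed the threshold (adjusted p = 0.122, exact binomial test with Benjamini-Hochberg adjustment over all reproducible regions). The last APC region, 57.2 kb upstream, had folds of 17.8 and 12.6.

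CTNNB1, which encodes beta-catenin, in band 3p22.1, had 3 reproducible regions, all downstream of the start. The tallest lay at chr3:41309490-41309898, 68.7 kb downstream, with 181 fragments in replicate 1 and 177 in replicate 2. The folds there were 26.5 and 20.6, over a background of 5.36 and 5.93 expected fragments. The RefSeq model of CTNNB1 is shorter than that distance, and the next protein-coding gene on that side is ULK4. The region nearest the CTNNB1 start, 24.8 kb downstream, was weak, with folds of 8.35 and 11.5 and 30 and 39 fragments, and only 8.02% of all reproducible regions had a mean fold at or below its own.

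AXIN2, scaffold and feedback inhibitor, in band 17q24.1, had 2 reproducible regions. The stronger lay 47.6 kb upstream at chr17:63605464-63606213 and held more than 1 summit in each list. Its main summit had 61 fragments and a fold of 19.2 in replicate 1 and 132 fragments and a fold of 38.1 in replicate 2 (mean 28.7 ± 13.4, SD, n = 2). Replicate 2 thus had 2.16 times as many, against a median of 1.26 for regions of like height (adjusted p = 0.0279, two-sided exact binomial test, Benjamini-Hochberg adjustment over all reproducible regions). It was the only one of the 24 regions that differed between the libraries. Over all regions 2.54% did: replicate 2 was higher at 1.05% and replicate 1 at 1.49%. The p-value covers counting error alone and compares 2 libraries. The shoulder summit of the same region, 48.1 kb upstream, had 57 and 85 fragments and did not pass the test over all pairs (adjusted p = 0.844, exact binomial test).

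The other AXIN2 region, 59.8 kb downstream and beyond the gene on the side of RGS9, had folds of 15.04 and 13.05 and 40 and 64 fragments. AXIN2 also had 5 pairs outside the reproducible regions, all with folds under 9 in both replicates.

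The TCF/LEF factors differed in their strongest site. TCF7L2, the main TCF of the intestinal epithelium, in band 10q25.2, had 3 reproducible regions, all downstream of its start and on the side of a gene body longer than 100 kb. The strongest lay at chr10:114751826-114752447, 42.0 kb downstream, with folds of 38.9 and 40.8 (mean 39.8 ± 1.33, SD, n = 2) and 150 and 161 fragments. Its mean fold was above that of 97.1% of reproducible regions, and the replicates were close to each other. The other regions, 58.7 and 70.7 kb downstream, had mean folds of 13.9 ± 4.50 and 8.98 ± 0.383 (SD, n = 2), and the latter was the weakest of the 24.

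TCF7, in band 5q31.1, had 2 reproducible regions 2.42 kb apart, 62.8 and 60.3 kb upstream on the side of VDAC1. The folds were 18.0 and 18.7 at the first, with 54 and 77 fragments, and 14.1 and 12.1 at the second, with 56 and 73 fragments. Between these and the far end of the window, no summit was shared by the replicates: 1 summit of replicate 1 lay 24.2 kb downstream and 1 summit of replicate 2 lay 91.2 kb downstream. A further site 84.9 kb upstream was not in the IDR table and had the smaller stack in replicate 2. It had 81 fragments in replicate 1 and 46 in replicate 2, over a background of 4 in both, with folds of 15.2 and 7.56.

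LEF1, in band 4q25, had 1 reproducible region, at chr4:109124051-109124329, 34.2 kb upstream. Its folds were 13.5 and 16.0, with only 28 and 46 fragments, over backgrounds of 1.00 and 1.36, the lowest that the peak caller assigns in each list. Of the 3 TCF/LEF loci, LEF1 thus had the site with the fewest fragments as its strongest. The LEF1 pairs 17.3 and 18.4 kb downstream had folds between 4.66 and 6.53.

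Among the ubiquitin ligases, ZNRF3 had the most reproducible regions of the 9 loci and RNF43, level with LEF1 and SOX9, the fewest. The intervals of these region counts overlap, so that order is not resolved. RNF43, in band 17q22, had 1 reproducible region, but it was the strongest of the 24 by mean fold. It lay 90.7 kb upstream at chr17:56584436-56584909, near the edge of the window on the side of HSF5 and MTMR4, with folds of 36.1 and 48.6 (mean 42.3 ± 8.82, SD, n = 2) and 175 and 181 fragments. The fragments were nearly the same in both libraries, a ratio of 1.03 against a median of 1.16 for regions of like height. The background was 3.52 in replicate 1 and 2.00 in replicate 2. The 4 RNF43 pairs outside reproducible regions, among them the one beside the start, had folds of 3.23 to 8.85.

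ZNRF3, in band 22q12.1, had 7 reproducible regions and the most summits, 22 in replicate 1 and 23 in replicate 2. The strongest by mean fold lay at chr22:29345697-29346502, 66.0 kb downstream of the start, with folds of 47.2 and 34.9 (mean 41.0 ± 8.67, SD, n = 2) and 211 and 233 fragments. A second, 69.1 kb downstream, had folds of 43.0 and 34.4 and 223 and 257 fragments, the most at any of the 24 regions. With a weaker region at 65.1 kb these formed a group of 3 within 4.36 kb. The RefSeq model of ZNRF3 is longer than 100 kb, so the group lies on the side of its gene body.

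Upstream of ZNRF3, the region at 84.6 kb, on the side of the neighbouring genes XBP1 and CCDC117, had 125 fragments in replicate 1 and 207 in replicate 2 and missed the threshold (adjusted p = 0.0655, exact binomial test). The region nearest the start, 8.02 kb upstream, had folds of 14.5 and 14.9. The 27.9 kb region, 981 bp wide, was the widest of the 24 and had folds of 10.4 and 18.0. The summits of the region at the edge of the window lay 100.2 kb downstream, and it was counted because its nearer end fell inside.

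SOX9, a target of the pathway in crypt cells, in band 17q24.3, had its sites on 1 side only: all 8 summits of replicate 1 and all 7 of replicate 2 lay downstream of the start, and 0 lay upstream. Over the 9 loci, 52 of 84 and 60 of 94 summits lay downstream. The single reproducible SOX9 region, at chr17:70160541-70160950, 43.7 kb downstream, was weak, with folds of 13.01 and 9.48 and 28 and 58 fragments. The gene itself is short, so this region lies beyond it. Taller by fragments in replicate 1, but outside the IDR table, were the pairs at 13.9 kb (45 and 47 fragments, folds of 9.14 and 7.72) and 14.9 kb (41 and 42 fragments, folds of 10.8 and 7.80).

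**Figure D2:**
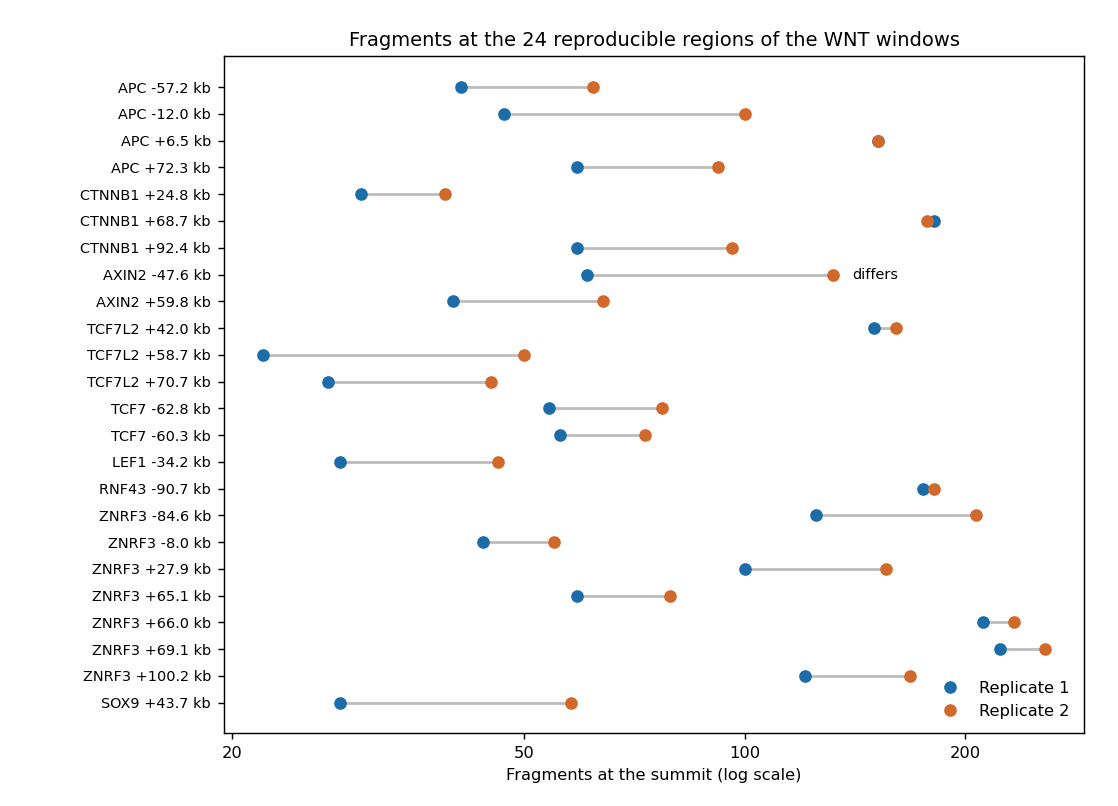
Fragments at the main summit (log scale) of each of the 24 reproducible regions, named by gene and distance from the start site; a grey line joins the replicates. The AXIN2 region 47.6 kb upstream, with 61 and 132 fragments, is the only one that differed between the libraries, and the ZNRF3 region 69.1 kb downstream, with 223 and 257, is the tallest in each.

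As a set, the 24 regions were of ordinary strength, with a strong minority. Their median mean fold was 16.8, against 15.8 over all reproducible regions, and 12 lay above the median of all and 12 below. In the strongest 10.0% of regions were 5 members, with mean folds from 36.4 to 42.3: the RNF43 region, the ZNRF3 pair of regions at 66.0 and 69.1 kb, the TCF7L2 region at 42.0 kb and the APC region at 6.55 kb. The strongest 1% held 0 members. At an IDR of at most 0.01, 16 of 24 remained, or 66.7% (95% exact binomial interval 44.7 to 84.4%), and 60.6% of all regions did.

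Fragments were higher in replicate 2 at 22 of the 24 regions, equal at 1 and lower at 1, with a median ratio of 1.47 against 1.29 over all regions. By that median, most regions of the genome also had more fragments in replicate 2. The fold of the authors was higher in replicate 2 at 16 regions and in replicate 1 at 8. Median folds were 16.4 and 18.4 over the 24, and 15.3 and 16.0 over all regions. The matching counts over all regions were not made. Spearman's rho between the folds in replicate 1 and replicate 2 was 0.814 over the 24 sites and 0.607 over all regions. These describe sites of the same 2 libraries, which were selected for matching ranks. The median distance between the main summits was 8 bp, as over all regions. It was within 20 bp at 20 of 24 regions, a share not counted over all regions. Within 50 bp were 91.7% of the 24 regions and 98.8% of all regions. The widest distance was 65 bp, at the TCF7L2 region 58.7 kb downstream.

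Over all 64 pairs in the windows, 2 differed between the replicates, the AXIN2 main summit with more fragments in replicate 2 and the TCF7 pair 84.9 kb upstream with more in replicate 1. The TCF7 ratio of replicate 2 to replicate 1 was 0.568, against a median of 1.33 for pairs of like height (adjusted p = 0.00133, exact binomial test, Benjamini-Hochberg adjustment over 63590 pairs). Over all pairs 2.69% differed, with replicate 2 higher at 0.940% and replicate 1 at 1.75%, so the count in the windows is near the background.

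**Figure D3:**
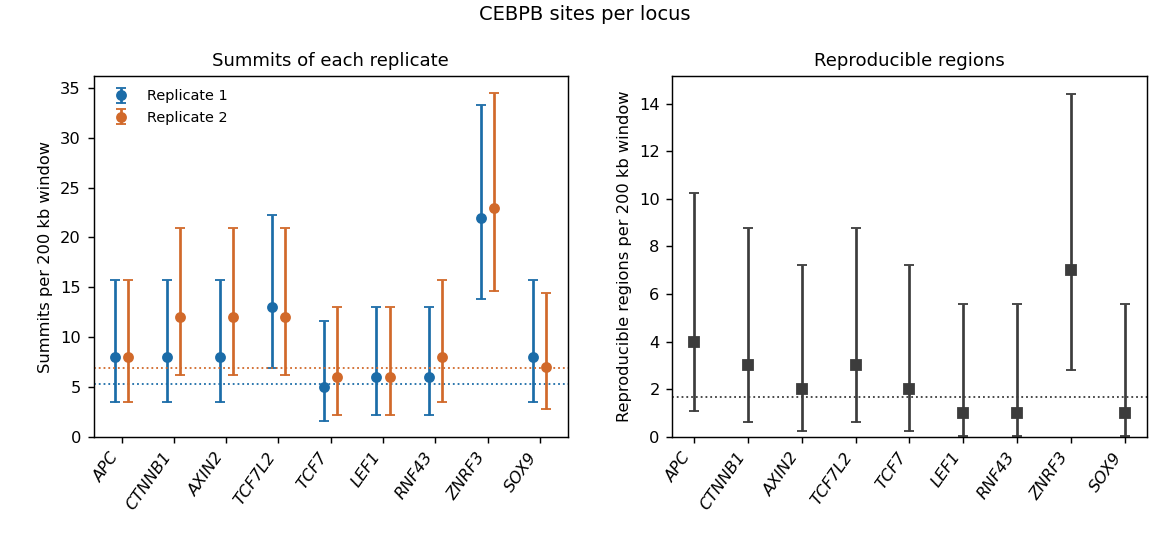
Number of summits per 200 kb window in each replicate (left) and of reproducible regions (right) at the 9 loci, with 95% exact Poisson intervals; dotted lines give the mean number per 200 kb over chromosomes 1 to 22 and X. ZNRF3 is highest in each, with 22 and 23 summits and 7 regions.

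In order of reproducible regions, ZNRF3 had 7 (95% exact Poisson interval 2.81 to 14.4), APC 4 (1.09 to 10.24), CTNNB1 and TCF7L2 3 each (0.619 to 8.77), AXIN2 and TCF7 2 each (0.242 to 7.22), and LEF1, RNF43 and SOX9 1 each (0.0253 to 5.57). The mean over the genome was 1.69 per 200 kb. All these intervals overlap, so the order is not resolved. By summits in replicate 1, ZNRF3 with 22 (13.8 to 33.3) was followed by TCF7L2 with 13 (6.92 to 22.2), and its interval was clear of those of RNF43, LEF1 and TCF7. In replicate 2, ZNRF3 with 23 (14.6 to 34.5) was clear of SOX9, LEF1 and TCF7. The genome means were 5.30 and 6.87 summits per 200 kb.

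Together the windows held 13.3 reproducible regions per Mb (8.54 to 19.8) against 8.43 over chromosomes 1 to 22 and X. The lower bound of that interval lies next to the genome value. The count includes the ZNRF3 region of which only the nearer end fell inside, and 23 regions had their midpoint in a window. No interval was computed for that count. The genome densities divide by the whole length of these chromosomes, 3036.3 Mb. An excess of reproducible regions is therefore not read from these values. Without ZNRF3 the density was 10.6 per Mb (6.19 to 17.01), an interval that holds the density of the genome. Summits were denser in the windows than over the genome in both lists, with 46.7 per Mb (37.2 to 57.8) against 26.5 in replicate 1 and 52.2 (42.2 to 63.9) against 34.4 in replicate 2. Without ZNRF3 they were at 38.8 per Mb (29.7 to 49.7) in replicate 1 and 44.4 (34.7 to 56.0) in replicate 2, where the lower bound lies next to the genome value. Intervals cover counting error only, and the genome includes regions poor in genes.

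**Figure D4:**
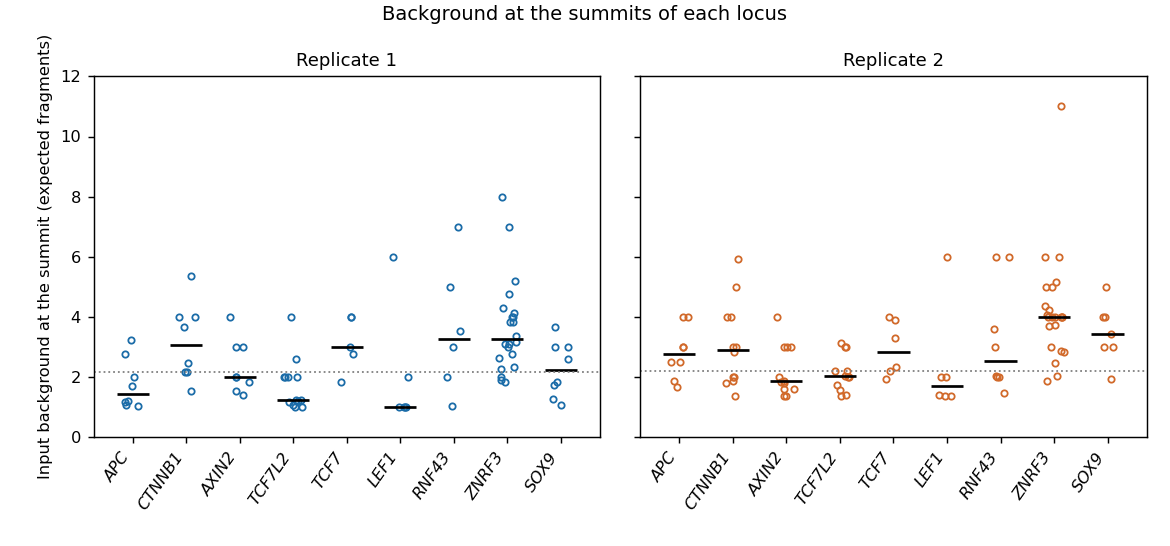
Input background (expected fragments, on the peak caller's scale) at each summit of the 9 loci in replicate 1 (left) and replicate 2 (right). Black bars are medians and dotted lines the median over all summits, 2.14 and 2.20. ZNRF3 has the highest medians, 3.27 and 4, and LEF1 the lowest in both replicates.

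The locus with the most sites, ZNRF3, also had the highest median background at its summits, 3.27 expected fragments in replicate 1 and 4 in replicate 2. RNF43, with 6 and 8 summits, was next to it in replicate 1 with 3.26, and LEF1 had the lowest medians, 1.00 and 1.70. The median fold of ZNRF3 summits, 5.46 and 6.28, was below that of all summits in each list, 6.99 and 6.53. Also below in each list were CTNNB1, with 5.32 and 6.16, and LEF1, with 5.74 and 5.63. The other loci were not below in both lists. A low median fold was therefore not particular to ZNRF3 or to the loci of high background. The part of the background in the number of ZNRF3 sites was not tested. Without ZNRF3 the median background of the member summits was 2.00 and 2.18, close to that of all summits.

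Most member summits were shared. In replicate 1, 68 of 84 (81.0%, 95% exact binomial interval 70.9 to 88.7%) belonged to a peak that overlapped a peak of replicate 2, as did 82.8% of all its summits. In replicate 2, 68 of 94 did (72.3%, interval 62.2 to 81.1%), against 64.7% of all. Inside a reproducible region lay 26 of 84 member summits in replicate 1 (31.0%, interval 21.3 to 42.0%) and 26 of 94 in replicate 2 (27.7%, interval 18.9 to 37.8%), and over all summits 36.5% and 28.6%. The 39 pairs outside reproducible regions had a median mean fold of 5.89 and medians of 20 and 29 fragments, while the 25 pairs inside had a median mean fold of 15.2. In the windows, more of the sites that both experiments marked thus lay outside the IDR table than in it, and most of those were low. The IDR table was itself drawn from the ranks of sites in these 2 lists. The lower folds outside it are therefore not a separate result. The same share and folds were not computed over all pairs. Most summits of the genome also lay outside a reproducible region, so this is not read as a trait of these loci.

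The limit of 100 kb passed close to several regions. Just inside lay the CTNNB1 region at 92.4 kb, with folds of 11.1 and 15.6, and the RNF43 region at 90.7 kb. Just outside lay regions 101.1 kb downstream of AXIN2 with folds of 19.1 and 22.1, 101.0 kb downstream of ZNRF3 with 21.4 and 29.7, 106.3 kb downstream of TCF7L2 with 17.4 and 22.2, and 108.7 kb upstream of RNF43 with 13.2 and 8.65.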

How the data were processed

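The data were a peak list for each CEBPB ChIP sample, called per sample over input per the file headers, and a table of the IDR of the pair; 2 input samples entered through the background. The submitters' processing notes list MACS2 2.1.2, Bowtie2 2.3.4, bedtools 2.25.0, SAMtools 1.9, FastQC 0.11.7 and the build hg19, without settings. The deposited lists give the −log10 of p and of q for every summit beside its fold enrichment and a score; the deposited IDR table gives the −log10 of the global IDR. Its intervals and summits served as keys to the lists, and 2 of its columns of values per sample were not used. Fold and p are the authors' own.

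Fragments and background were solved from fold, (pileup + 1) / (background + 1), and p, the Poisson tail, taking each read as 0.927 (replicate 1) or 0.800 (replicate 2) of scaled pileup. Whole reads resulted, within 0.005 on the −log10 p, at 100% of 81303 and 99.997% of 105225 summits. On 4000 simulated summits of each list 100% were recovered. Fragments are counted before scaling, the background on the scaled pileup. Total reads are not held in the lists.

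A region belonged to a window if any part of it lay within 100 kb of the start site; of several summit pairs the one of highest mean fold stands for the region. For each region or pair, the share of fragments from replicate 2 was tested (exact binomial, two-sided) against the median share among the 1001 of nearest height, with Benjamini-Hochberg adjustment over all of them. When this was tested on 25602 simulated regions, it called 93% of the 200 made to differ 3-fold and 13 of the others. The simulated counts varied by counting error alone. The 13 calls therefore do not measure false calls between libraries that vary in other ways. The comparison of pairs was chosen after seeing the data. The genes, lists and tests were chosen with earlier results of these data known. Named sites were, at each locus, the strongest region, the one nearest the start and any that differed between replicates; others were named after their values were seen. Strands came from RefSeq's promoter table or textbook knowledge, neighbouring genes from RefSeq (GRCh38.p14), and bands and chromosome lengths of hg19 from circlize 0.4.16. A planned count over further WNT pathway genes and motifs at the peaks were not analysed here, since no hg19 annotation or sequence was used. Intervals are exact at the 95% level. Software was R 4.3.3 and Python 3.11.15 with pandas 2.3.3, SciPy 1.17.1, NumPy 2.4.6 and matplotlib 3.10.9.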

Additional observations from a re-analysis of the deposited data

How the results depend on the processing

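Counts scaled with the window. At 50 kb, 46 summits of replicate 1, 50 of replicate 2 and 9 reproducible regions remained, and at 200 kb there were 177, 209 and 54, or 10.0 and 15 regions per Mb. Counting summit pairs within 100 bp at q-values of at most 0.01 in place of the IDR gave 63 sites, and peaks of a single replicate numbered 80 to 90. The median fold of the regions, 16.8, was 14.7 at 50 kb, 25.3 at an IDR of at most 0.01, 26.6 as the plain ratio of scaled fragments to background, which has no pseudocount, and 15.2 without ZNRF3; with 1 replicate it was 16.4 to 18.4. The number of differing regions, 1, became 2 at 200 kb and 2 over all pairs within 100 bp, and the adjusted p of the AXIN2 region was 0.0254 to 0.0365 over the other 4 settings run for it (exact binomial test). The share of replicate 2 summits that were shared fell to 59.8% when peaks needed a −log10 q of 5 or more, and the shares inside a reproducible region to 20.2% and 18.1% at an IDR of at most 0.01. Apart from fewer or more positions by construction, the cause of these changes was not tested. The other 34 alternative values lay within 1.5 times the count reported, within the 95% interval of the share, or within the spread (1 SD) of the median fold between replicates. Among them were 16 regions at an IDR of at most 0.01, 17 regions without ZNRF3, and 62 and 71 summits without ZNRF3. The settings without ZNRF3 and over all pairs were chosen after seeing the data. No paired analysis was possible because input libraries have no values of their own here and the ChIP libraries form a single group. Few fragments lie behind some regions: 28 and 46 at LEF1, and 22 and 50 at the TCF7L2 region 58.7 kb downstream. The effect of depth was not tested.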

Other observations

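Beyond 100 kb, the loci differed in how many more reproducible regions followed. TCF7L2, with 3 regions within 100 kb, had 12 within 200 kb, and ZNRF3, with 7, had 16. TCF7 and RNF43, which had 0 regions within 50 kb, had 6 and 4 within 200 kb. CTNNB1 had 3 at both distances, and its nearest region outside the window was 482.2 kb downstream. LEF1 and SOX9 had 2 each within 200 kb.

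Peaks seen in 1 replicate only made up 19.05% of the member summits of replicate 1 and 27.7% of those of replicate 2, against 17.2% and 35.3% over all summits. The 16 such summits of replicate 1 had a median fold of 5.17 and 14.5 fragments, against 4.93 and 15 for all such summits of that list. The 26 of replicate 2 had 6.06 and 23 fragments, against 5.17 and 18. The highest fold in replicate 1 was 12.1, at a LEF1 summit 48.2 kb downstream with 25 fragments. In replicate 2 it was 9.64, at an AXIN2 summit 53.0 kb upstream with 33 fragments. CTNNB1 had 5 such summits in replicate 2 and 0 in replicate 1, and AXIN2 had 4 and 0. TCF7L2 had 3 in replicate 2 and 5 in replicate 1, although replicate 2 had more summits over the genome. LEF1 and SOX9 also leaned to replicate 1, each with 1 in replicate 2 and 2 in replicate 1. APC had 2 in each, and TCF7, RNF43 and ZNRF3 had more in replicate 2. These counts are small, and the differences were not tested.

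At ZNRF3, the pair 24.99 kb downstream, outside the IDR table, had 83 and 93 fragments, folds of 12.6 and 6.28 and backgrounds of 5.20 and 11 expected fragments. The fold was higher in replicate 1, where the fragments were fewer. The pair 10.0 kb downstream had 22 and 61 fragments over backgrounds of 2.75 and 2.81 (adjusted p = 0.112, exact binomial test over all pairs).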
